A study of Mus musculus with 4 samples.

Results

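Of the 20654 genes that a probe on the array could be named for, 9 were read as markers of endoderm and epithelium: Epcam, Cldn6, Krt8, Krt18, Rbp4, Ttr, Afp, Apoa1 and Spink1. They were taken as every non-control probe whose RefSeq accession maps to one of these symbols. Each had 1 probe, printed in 10 spots per array for Afp and Apoa1 and in 1 spot for the other genes. The genes were chosen by their measured signals as well as by their function: the list was drawn up with the differences between the fractions below in view, among them the low RFP-positive values of Rbp4, Spink1, Epcam and Cldn6. The differences of the 9 genes between the fractions are therefore described, with no test of them.

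EB5 mouse embryonic stem cells with a Hoxb6 reporter that makes red fluorescent protein (RFP) had been differentiated for 6 days on OP9 feeder cells, which are stromal cells of mouse bone marrow. The cells were sorted for Flk-1, a receptor of VEGF on early lateral mesoderm whose gene is Kdr, and by the reporter into RFP-positive cells (RFP+ below) and RFP-negative cells (RFP- below), with 2 one-colour arrays each. Both fractions thus share the line, the reporter construct, the feeder and the day, and the labels do not say whether the 2 samples of a fraction came from separate cultures, so that the spread between them may be technical.

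Epithelial cells are held together by adhesion molecules such as Epcam and by claudins, which seal tight junctions, and they carry a cytoskeleton of paired type II and type I keratins. Early endoderm, and the visceral endoderm of the yolk sac in particular, also secretes carrier proteins that the fetal liver makes later. These include transthyretin (Ttr), which carries thyroid hormone and binds retinol-binding protein (Rbp4), alpha-fetoprotein (Afp) and apolipoprotein A-I (Apoa1), the main protein of high-density lipoprotein. Several of these genes do not belong to endoderm alone: Epcam and Cldn6 are also made by pluripotent cells, Rbp4 also by adipocytes, and Krt8 and Krt18 also by other simple epithelia and trophoblast.

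The bases before the annotated starts of the 4 epithelial members are shown because these genes were measured on all 4 arrays and held 1 short motif in common. That motif was picked after 8 motifs had been searched, so its presence in all 4 genes is a description. Each run is the 250 bases upstream of the gene's start, 5′ to 3′ on the gene's strand, from RefSeq on build GRCm38.p6, with the E-box letters CAGGTG or their reverse complement CACCTG in capitals.
Epcam, chr17:87635729-87635978, plus strand: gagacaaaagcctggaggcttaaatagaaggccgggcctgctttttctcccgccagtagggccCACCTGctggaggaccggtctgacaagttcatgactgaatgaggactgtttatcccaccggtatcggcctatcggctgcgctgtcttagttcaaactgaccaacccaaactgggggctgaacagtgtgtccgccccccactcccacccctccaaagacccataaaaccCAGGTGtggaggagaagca
Cldn6, chr17:23679115-23679364, plus strand: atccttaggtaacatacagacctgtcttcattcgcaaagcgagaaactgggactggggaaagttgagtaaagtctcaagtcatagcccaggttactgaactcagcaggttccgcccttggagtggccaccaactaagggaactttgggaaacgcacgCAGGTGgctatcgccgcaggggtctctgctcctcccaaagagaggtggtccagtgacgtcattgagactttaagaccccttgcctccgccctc
Krt8, chr15:102004343-102004592, minus strand: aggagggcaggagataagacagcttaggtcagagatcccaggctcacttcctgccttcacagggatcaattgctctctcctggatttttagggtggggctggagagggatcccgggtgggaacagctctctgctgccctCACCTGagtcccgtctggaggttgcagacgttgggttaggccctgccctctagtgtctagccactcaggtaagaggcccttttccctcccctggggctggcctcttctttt
Krt18, chr15:102027966-102028215, plus strand: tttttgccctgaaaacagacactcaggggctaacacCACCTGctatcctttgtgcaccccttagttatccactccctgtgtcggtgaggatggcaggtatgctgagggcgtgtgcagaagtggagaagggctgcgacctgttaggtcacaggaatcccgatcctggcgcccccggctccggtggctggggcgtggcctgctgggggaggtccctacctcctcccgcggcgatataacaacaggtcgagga

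Both strands were searched for 8 short motifs in such windows, of which the RefSeq table held 32851 over 27025 genes. Not all 8 motifs are reported here. Windows were read for 7 of the 9 genes, with 2 windows for Rbp4. Ttr and Spink1, both on chromosome 18, were left out of the search. The E-box letters, which zinc finger factors of the Snail and Zeb families can bind in epithelial genes, were found in all 4 windows printed above, in 2 places for Epcam, and also in that of Apoa1. They were absent from the windows of Afp and Rbp4. Over all windows the share with these letters was 17.2%. The GC box letters GGGCGG were found in Epcam, in Cldn6 and in 1 window of Rbp4, against 32.7% of all windows. The letters AGATAA of a GATA site were found in Krt8 (9.99% of all windows), TGTTTAC of a forkhead site in the other window of Rbp4 (3.17%), and TATAAA in Afp and in 1 window of Rbp4 (12.4%). The letters TATTTAC of another forkhead site were found in no window of the 7 genes searched, against 2.73% of all windows. A match describes these letters and shows no binding.

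In the RefSeq gene order Krt8 and Krt18 are neighbours on chromosome 15, so that the type II and type I keratin of simple epithelia lie side by side. Cldn6 lies next to Cldn9 on chromosome 17, Afp next to Alb on chromosome 5, and Apoa1 next to Apoc3 on chromosome 9. Of these 3 neighbours, Alb and Apoc3 were well above background on 0 arrays and Cldn9 on 2.

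On every array 59305 spots were not controls, and between 55.2% and 59.3% of them were marked by the scanner software as well above background. Levels below are on a log2 scale on which 0 is the 75th percentile of an array's signals. A difference is RFP+ minus RFP-, and each error is the SD over a fraction's 2 arrays. The number of arrays limits the precision of every value. Kdr was strong in both fractions, with means of 4.25 in RFP- and 4.39 in RFP+ cells, while Hoxb6 was well above background on 0 arrays, so that its transcript gave no check of the reporter labels. Over 13431 genes tested, limma's moderated test with Benjamini-Hochberg adjustment called 0 genes (0%) at an adjusted p of 0.05. An unadjusted p under 0.05 was reached by 872 genes (6.49%), of which 372 were higher and 500 lower in RFP+ cells.

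The 9 genes fell apart by level. Epcam, Cldn6, Krt8, Krt18, Rbp4 and Spink1 were well above background on all 4 arrays. Ttr was well above background on 3 arrays, and Apoa1 and Afp on 0. The name endoderm is thus not borne out by the list's most specific secreted genes, and the 6 measured genes are called by their symbols below. In these sorted bulk samples fewer cells of a type and less RNA per cell cannot be told apart.

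**Figure D1:**
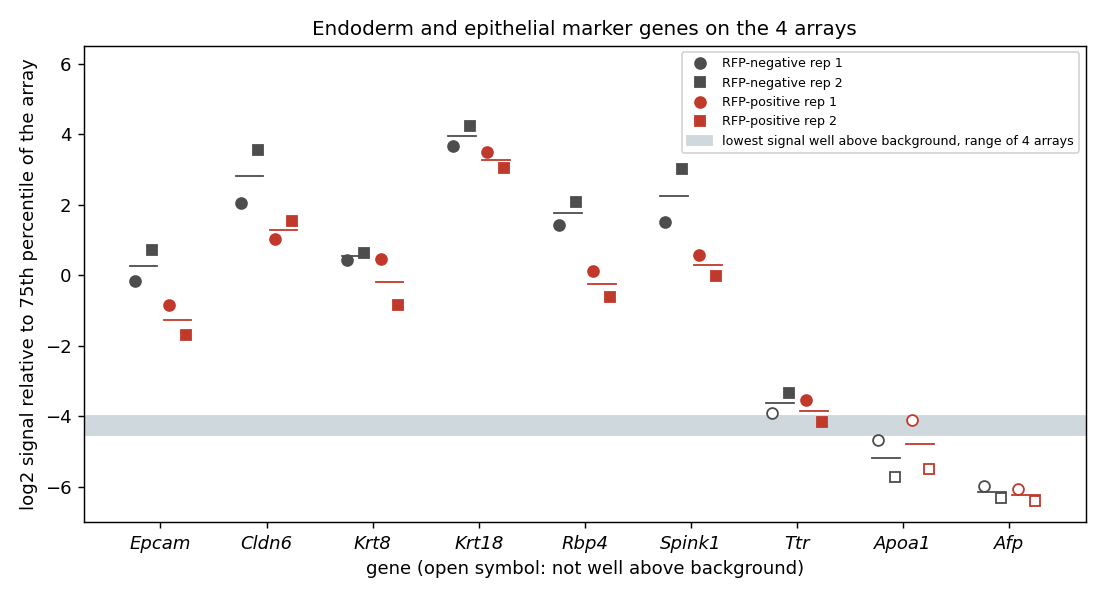
Log2 signal relative to the array's 75th percentile (vertical axis) for each of the 9 genes (horizontal axis) on the 4 arrays; circles are replicate 1, squares replicate 2, short lines the mean of a fraction, open symbols signals not well above background, and the grey band the lowest signals well above background, from −4.54 to −3.98. Epcam, Cldn6, Krt18, Rbp4 and Spink1 lie lower on both RFP-positive arrays than on both RFP-negative arrays, Krt8 and Ttr overlap, and Apoa1 and Afp are open on every array. Heights of different probes are not comparable.

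Of the 7 genes that passed the filter on dim probes, 5 were lower on both RFP+ arrays than on both RFP- arrays, and 0 were higher on both. Among all genes tested, 21.6% were lower in this way and 18.8% higher. The 5 were among the 6 measured on every array, where the shares over all such genes were 20.4% lower and 18.9% higher. With the arrays scaled to their medians the split over all genes turned, from 2897 lower and 2521 higher to 2228 lower and 3275 higher, while these 5 genes were lower without overlap under each scaling tried. Because these genes were listed with such values known, the count is a description. The median difference of the 7 genes was −1.52, beside −0.05 for all genes tested. It was −0.77 without RFP- replicate 2.

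Epcam encodes an adhesion molecule of the epithelial surface. Its values were −0.15 and 0.70 on RFP- replicates 1 and 2, and −0.85 and −1.70 on RFP+ replicates 1 and 2. The fractions did not overlap, and the nearest arrays, replicate 1 of each fraction, were 1.62-fold apart. The mean went from 0.28 ± 0.60 to −1.27 ± 0.60 (n = 2 each), a difference of −1.55. The gap between the 2 RFP- arrays was 0.85 and that between the 2 RFP+ arrays was −0.85, so that each was more than the nearest gap between the fractions of 0.70.

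Cldn6, a claudin of embryonic epithelia, was at 2.05 and 3.56 in RFP- and at 1.03 and 1.53 in RFP+ cells, replicate 1 first. Its means were 2.80 ± 1.07 and 1.28 ± 0.35 (n = 2 each), which differ by −1.52. RFP- replicate 2 stood 2.85-fold above replicate 1, about as far as the means of the fractions stood apart, at 2.87-fold. Without RFP- replicate 2 the difference was −0.77. Unlike the other 5 genes measured on every array, Cldn6 was not lowest on RFP+ replicate 2.

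The keratins differed less. Krt18, the type I keratin of simple epithelia, was at 3.67 and 4.23 in RFP- and at 3.50 and 3.05 in RFP+ cells, without overlap. The nearest arrays were 1.13-fold apart, and the means of 3.95 ± 0.39 and 3.27 ± 0.32 (n = 2 each) differed by −0.68. Without RFP- replicate 2 this became −0.40, and without RFP+ replicate 2 −0.45. Krt8, its type II partner, was at 0.45 and 0.64 in RFP- and at 0.47 and −0.83 in RFP+ cells. RFP+ replicate 1 lay between the RFP- arrays, so that the fractions overlapped. The Krt8 difference of −0.72, from 0.55 ± 0.14 to −0.18 ± 0.92 (n = 2 each), came to −0.07 without RFP+ replicate 2.

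Rbp4, the plasma carrier of retinol, was at 1.43 and 2.08 in RFP- and at 0.11 and −0.61 in RFP+ cells. The means of 1.76 ± 0.46 and −0.25 ± 0.51 (n = 2 each) differed by −2.01, a 4.02-fold lower level in RFP+ cells, and the nearest arrays were 2.50-fold apart. It was the 1 gene of the 9 at least 2-fold lower on every pair of arrays, as were 36 of the 12420 genes (0.29%) well above background on all 4 arrays. Leaving out each array in turn gave differences from −2.37 to −1.65.

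Spink1 encodes a secreted trypsin inhibitor. It was at 1.51 and 3.001 in RFP- and at 0.58 and −0.01 in RFP+ cells, with the nearest arrays 1.91-fold apart. Its means were 2.25 ± 1.06 and 0.28 ± 0.42 (n = 2 each), a difference of −1.97. As for Cldn6, RFP- replicate 2 was far above replicate 1, by 2.81-fold, and without it the difference was −1.23.

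**Figure D2:**
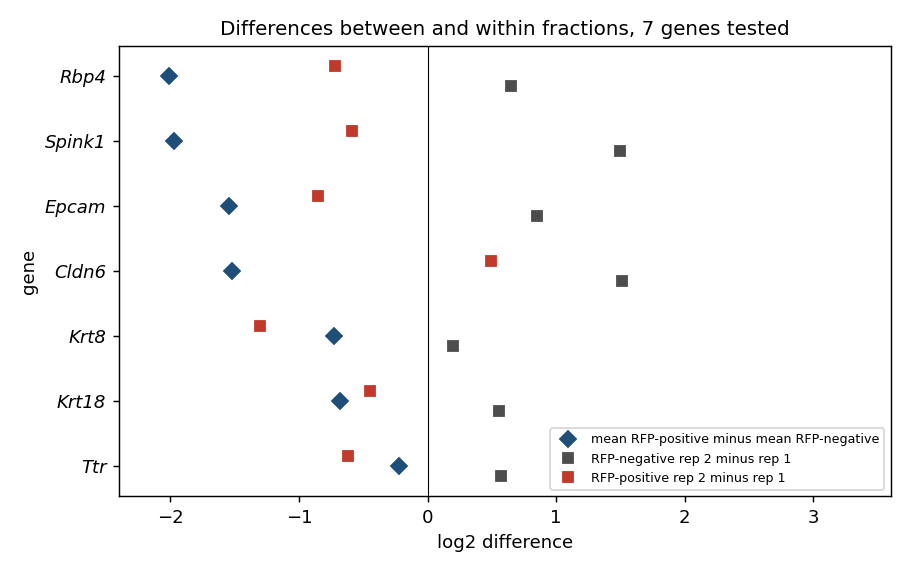
Log2 differences (horizontal axis) for the 7 genes tested (vertical axis): diamonds are the RFP-positive mean minus the RFP-negative mean, and squares the replicate 2 minus replicate 1 gap within RFP-negative (grey) and RFP-positive (red) cells. Diamonds lie left of 0 for all 7 genes, from −2.01 for Rbp4 to −0.22 for Ttr, and grey squares lie right of 0, up to 1.51 for Cldn6.

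The replicate gaps of these genes ran in 1 pattern. All 7 genes tested were highest on RFP- replicate 2, which was the highest array for 23.4% of the genes well above background on all 4 arrays. Of the 6 genes measured on every array, 5 were lowest on RFP+ replicate 2, as were 42% of all genes so measured. Genes listed for low RFP+ values tend to be highest on an RFP- array and lowest on an RFP+ array. These shares over all genes are therefore not a like background. The median size of the gap between the replicates of the 7 genes was 0.65 in RFP- and 0.62 in RFP+ cells, beside 0.25 and 0.38 for all genes tested. The scanner software's own error for the 6 genes was 10% to 10.7% of the signal, which covers the reading of a spot and leaves out sorting, labelling and hybridisation.

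The secreted carriers other than Rbp4 were at or below the limit of the arrays. Ttr was at −3.91 and −3.33 in RFP- and at −3.53 and −4.15 in RFP+ cells, with RFP- replicate 1 not well above background. Its fractions overlapped, its means of −3.62 ± 0.41 and −3.84 ± 0.44 (n = 2 each) differed by −0.22, and the sign turned without RFP- replicate 2, to 0.07, and without RFP+ replicate 2, to 0.09. Ttr passed the filter through its RFP+ arrays.

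Apoa1 and Afp were each read in 10 spots per array. For Apoa1 the median processed signal, a linear intensity, was 8.70 and 3.76 on the RFP- arrays and 13.5 and 4.45 on the RFP+ arrays. Of its spots, 2 of 10 on RFP+ replicate 1 were well above background, at signals up to 20.9, and 0 were on the other arrays. For Afp the medians were 2.71, 2.58, 3.04 and 2.63 in the same order, with 0 spots well above background. No fold is given for either gene, since both fractions were below the limit.

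**Figure D3:**
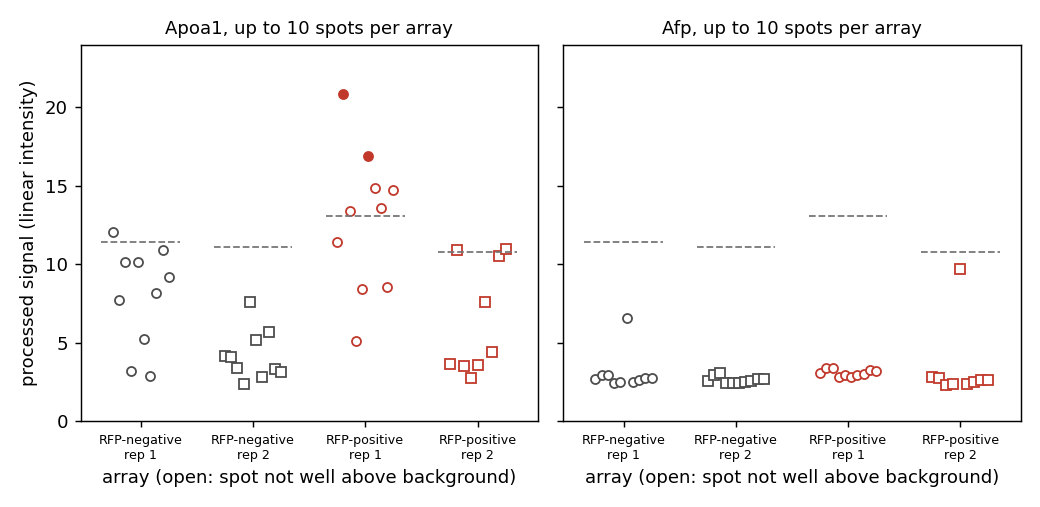
Processed signal as linear intensity (vertical axis) of the spots of Apoa1 (left) and Afp (right) on the 4 arrays (horizontal axis); filled symbols are spots well above background, and dashed lines the lowest signal well above background among all spots of the array. The 2 filled Apoa1 spots lie on RFP-positive replicate 1, and no Afp spot is filled.

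Genes that work with these 9 were read from lists, none of which contains the 9 genes. With limma's test and adjustment over all 13431 genes, 0 genes of any list passed, and the counts below give unadjusted p under 0.05 and the genes without overlap. Over all genes tested, 21.6% were lower and 18.8% higher without overlap. At an unadjusted p under 0.05, 500 of the 13431 were lower and 372 higher. Each list's counts are given beside these shares. The lists were chosen with earlier results of these data known. The shares are therefore not a like background for them, and the counts are a description. A gene that passed the filter on dim probes through 1 fraction alone is likely to differ, so counts are also given over genes measured on all 4 arrays where they change. Where an array of a gene was not well above background, its values are given in place of a difference.

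The plasma proteins of visceral endoderm and liver, the kin of Ttr, Afp and Apoa1, were mostly not detected. Of 22 genes with a probe, 15 were well above background on 0 arrays, among them Alb, Apob, Apoc3 and Hpx, and 5 were tested. Of the 5, 0 had an unadjusted p under 0.05, 1 was lower without overlap and the median difference was −0.14, which turned to 0.02 without RFP- replicate 1. The summed signal of the 22, in multiples of the 75th percentile, was 100.5 and 84.9 in RFP- and 90.3 and 58.9 in RFP+ cells. Apoe, an apolipoprotein that macrophages, adipocytes and many other cells also make, was at 6.41, 6.17, 6.27 and 5.57, RFP- first, and made up 80.5% to 85.3% of this sum. Sums here and below add probes whose heights are not comparable, so a gene's share is one of probe signal and not of transcripts. Apoc1, another small apolipoprotein, was at 0.70, −0.25, −0.78 and −3.28, with a difference of −2.26 (SE 0.89, limma adjusted p 0.745), which was −1.01 without RFP+ replicate 2. Apoa2, another HDL protein, differed by −0.14 and Trf, the transferrin gene, by 0.23. Both turned when 1 array was left out, to 0.11 without RFP- replicate 1 and to −0.04 without RFP- replicate 2. With probes averaged, Apoa2 was at −0.87, Trf turned to −0.03, and the median of the list was −0.37.

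Regulators of endoderm were present in both fractions. Of 20 genes 14 were tested, with 1 lower and 0 higher at an unadjusted p under 0.05 and a median difference of −0.14, which was 0.08 without RFP+ replicate 2. Sox17, a factor of endoderm and also of endothelium, was at 2.23 and 2.81 in RFP- and at 2.68 and 3.07 in RFP+ cells, which overlap. Foxa2, a pioneer factor of definitive endoderm and of the midline, was at 0.77 and 1.84 and at 1.86 and 1.03, which also overlap. Hnf4a, a factor that drives liver genes, was well above background on 0 arrays. Gata6, shared by endoderm and heart, differed by 0.38 (SE 0.23) and Trh by −0.89 (SE 0.46), with limma adjusted p of 0.750 each, and Trh was at −0.27 without RFP+ replicate 2. Foxa3, a forkhead factor of endoderm, was at −2.32 and −3.03 in RFP- and at −2.99 and −5.67 in RFP+ cells, the last not well above background. Pyy, which encodes a gut peptide hormone, was the 1 gene of this list at an unadjusted p under 0.05. It was at −3.02 and −3.44 in RFP- and at −5.37 and −4.54 in RFP+ cells, both RFP+ signals not well above background. It entered the test through its RFP- arrays, and of the 12 genes of the list measured on all 4 arrays 0 had such a p.

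The uptake genes of visceral endoderm had 9 of 14 genes tested, 0 of them at an unadjusted p under 0.05 and 3 lower without overlap, with a median of 0.09 that turned when 1 array was left out, to −0.18 at the lowest (without RFP- replicate 1). Cubn, the receptor by which visceral endoderm takes up protein, was well above background on 0 arrays, and its partner Amn on 1. Dab2, an adaptor of endocytosis, differed by 0.53 (SE 0.45), which was −0.04 without RFP+ replicate 2, Ihh by −0.36 and Cited1 by −0.36. Tdh differed by −0.39, and by −0.09 with its probes averaged. The genes of parietal endoderm and basement membrane were all 10 tested, with 0 at an unadjusted p under 0.05, 4 lower and 2 higher without overlap and a median of −0.17. Plat was at −0.68, Thbd at −0.34, Lamb1 at 0.37 and Col4a1 at 0.36.

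Among the relatives of Cldn6, 6 of 16 other claudins were tested. Cldn7, a claudin of many epithelia that binds Epcam, was at 0.80 and 1.53 in RFP- and at 0.18 and 0.11 in RFP+ cells, with a difference of −1.02 (SE 0.32) and a limma adjusted p of 0.745. It was the 1 claudin with an unadjusted p under 0.05, and it was lower without overlap. Like the 7 genes above it was highest on RFP- replicate 2. Cldn5, the claudin of endothelium, differed by 0.60 and Cldn11 by 1.45, both higher without overlap, and without RFP+ replicate 2 these were 0.25 and 0.56. Cldn4 differed by −0.33, which turned with all its probes averaged and, to 0.74, without RFP+ replicate 1. The median of the 6 was 0.05, and −0.06 without RFP- replicate 1.

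Of 15 other keratins, 8 were tested, with 4 lower and 1 higher without overlap, 0 at an unadjusted p under 0.05 and a median of −0.14. Over the 6 measured on all 4 arrays the median was 0.16. Krt19, a further type I keratin of simple epithelia, was at 0.41 and 0.56 in RFP- and at 0.02 and 0.00 in RFP+ cells, with a difference of −0.48 (SE 0.23) and a limma adjusted p of 0.745. Krt17 was at −3.22 and −2.69 in RFP- and at −3.59 and −5.40 in RFP+ cells, the last not well above background. Krt80 differed by 0.38, which turned under normexp background correction. Krt7 was at −3.64 and −2.78 in RFP- and at −3.73 and −4.48 in RFP+ cells, both RFP+ signals not well above background.

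Other epithelial adhesion genes were the largest list, with 21 of 27 genes tested. Of these, 10 were lower and 3 higher without overlap, 3 were lower and 1 higher at an unadjusted p under 0.05, and the median difference was −0.44. Of the 18 measured on all 4 arrays, 1 was lower and 1 higher at such a p, with a median of −0.43. These 2 genes of the 18 both encode parts of desmosomes, and their differences had opposite signs, −1.02 (SE 0.37, limma adjusted p 0.745) for Jup, the plakoglobin gene, and 0.97 (SE 0.24, limma adjusted p 0.673) for Dsp, the desmoplakin gene. Pkp1, a further desmosomal gene, was at −2.60 and −1.94 in RFP- and at −5.92 and −3.75 in RFP+ cells, with RFP+ replicate 1 not well above background. Over the scalings and with probes averaged the median of the 21 ran from −0.55 to −0.31. Cdh1, the E-cadherin gene that defines most epithelia, was well above background on 1 array.

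Of 13 epithelial regulators 9 were tested, with 5 lower and 1 higher without overlap, 2 lower at an unadjusted p under 0.05 and a median of −0.39. The counts were 3 lower and 2 higher with a median of −0.25 under quantile scaling, and 3 and 1 with −0.15 under normexp. Esrp1, which directs epithelial splicing, was at −1.53 and −0.48 in RFP- and at −1.89 and −2.57 in RFP+ cells, a difference of −1.23 (SE 0.46, limma adjusted p 0.745). Elf3, an Ets factor of epithelia, was at −2.84 and −2.47 in RFP- and at −3.72 and −4.36 in RFP+ cells, both RFP+ signals not well above background. It was the other gene at such a p and entered the test through its RFP- arrays. Grhl2 was at −4.07 and −2.36 in RFP- and at −2.46 and −1.64 in RFP+ cells, the first not well above background. Klf5 differed by −0.67, and by −0.28 without RFP+ replicate 2.

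The partners of Rbp4 and Apoa1 were read last. Among genes of retinol transport and metabolism, 9 of 12 were tested, with 0 at an unadjusted p under 0.05, 2 lower without overlap and a median of −0.14, where Rbp4 itself was at −2.01. Stra6, the cell surface receptor of Rbp4, was well above background on 2 arrays and was not tested. Crabp1, an intracellular carrier of retinoic acid, differed by −0.57 (SE 0.43) and Dhrs3 by −0.53 (SE 0.47), and without RFP+ replicate 2 these were −0.08 and 0.07. Aldh1a3, which makes retinoic acid, was at −3.38 and −2.30 in RFP- and at −3.60 and −6.83 in RFP+ cells, the last not well above background. Among the HDL partners of Apoa1, 5 were tested, with 2 higher at an unadjusted p under 0.05. Abca1 and Abcg1, the pumps that load cholesterol onto apolipoprotein A-I and HDL, were higher in RFP+ cells without overlap, by 1.13 (SE 0.26) and 0.79 (SE 0.23), with limma adjusted p of 0.660 and 0.727. Lcat was at −0.68 and Pltp at −0.10.

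Markers of other cells that such a sort could hold were read beside these values. Among all genes tested, 21.6% were lower and 18.8% higher without overlap. These lists too were chosen with earlier results known, so their counts are a description. The adipocyte list, whose 16 genes were all tested, had 14 genes lower and 0 higher without overlap, 14 lower at an unadjusted p under 0.05, and a median difference of −1.50. Its summed signal was 93.5 and 94.3 in RFP- and 49.6 and 44.7 in RFP+ cells. Cidec was at −2.54, Cfd at −1.81, Car3 at −1.81 and Pparg at −1.41, with limma adjusted p from 0.446 to 0.581. The list of OP9 stroma and fibroblasts had 10 of 13 genes lower and 0 higher without overlap, 4 lower at an unadjusted p under 0.05 and a median of −0.73. Its summed signal was 72.3 and 117.6 in RFP- and 60.9 and 49.2 in RFP+ cells, and Vcam1 was at −1.50, Timp1 at −1.09, Thy1 at −0.89 and Col1a1 at −0.85. All 16 adipocyte genes were well above background on all 4 arrays, and 2 of the 15 stromal genes were so on 0. Both lists had the sign of the differences of Rbp4, Spink1, Epcam and Cldn6 and were highest on RFP- replicate 2, and their part in those differences was not tested.

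The other marker lists had medians nearer 0. Pluripotent cells, which also make Epcam and Cldn6, had 12 of 17 genes tested, 0 at an unadjusted p under 0.05, 2 lower and 1 higher without overlap and a median of −0.25, which was 0.06 without RFP- replicate 1. Their summed signal was 613.5 and 510.5 in RFP- and 531.4 and 436.3 in RFP+ cells, of which the probe of Nanog gave 92.5% to 94.7%, and without it the sums were 33.2 and 27.2 in RFP- and 31.8 and 32.7 in RFP+ cells. Pou5f1 was at −1.05 (−0.14 without RFP+ replicate 2), Dppa4 at −0.49 and Lin28a at 0.25. Sox2 was at −3.99 and −3.12 in RFP- and at −3.68 and −4.38 in RFP+ cells, with RFP- replicate 1 not well above background. Trophoblast genes had a median of 0.31 over 5 genes, with Plet1 at 1.23 (0.07 with its probes averaged), Eomes at 0.89 (0.20 with its probes averaged), Gata3 at 0.31 (−0.24 without RFP+ replicate 1) and Gcm1 at −0.34 (turned with all its probes averaged and, to 0.23, without RFP+ replicate 2), and their summed signal was 14.5 and 10.4 in RFP- and 17.3 and 14.0 in RFP+ cells. Mesothelial genes had 3 tested, with Wt1 at −0.31, Gpm6a at −0.58 and Lrrn4 at −0.02, which turned with the arrays scaled to their medians and when 1 array was left out. Surface and neural ectoderm had a median of −0.40 over 8 genes, with Neurog1 at −0.57, Sox1 at −0.55 (−0.07 without RFP+ replicate 2), Pax3 at −0.42 and Tubb3 at −0.38. Blood cell genes had a median of 0.23 over 6, which was −0.12 without RFP+ replicate 1. Gata1 was at 1.44, and Hbb-bh1 at 0.46, which turned to −0.50 without RFP+ replicate 1. Alas2 was at 0.56 and Ptprc at −0.40, and both were at about 0 without RFP+ replicate 2, at 0.02 and 0.01. All 13 genes of Flk-1-positive mesoderm and endothelium were well above background on all 4 arrays, with 6 higher and 0 lower without overlap and a median of 0.07, which was −0.01 without RFP- replicate 2. Flt1 was at 0.84, Tek at 0.40, Tal1 at 0.39 and Etv2 at −0.72.

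**Figure D4:**
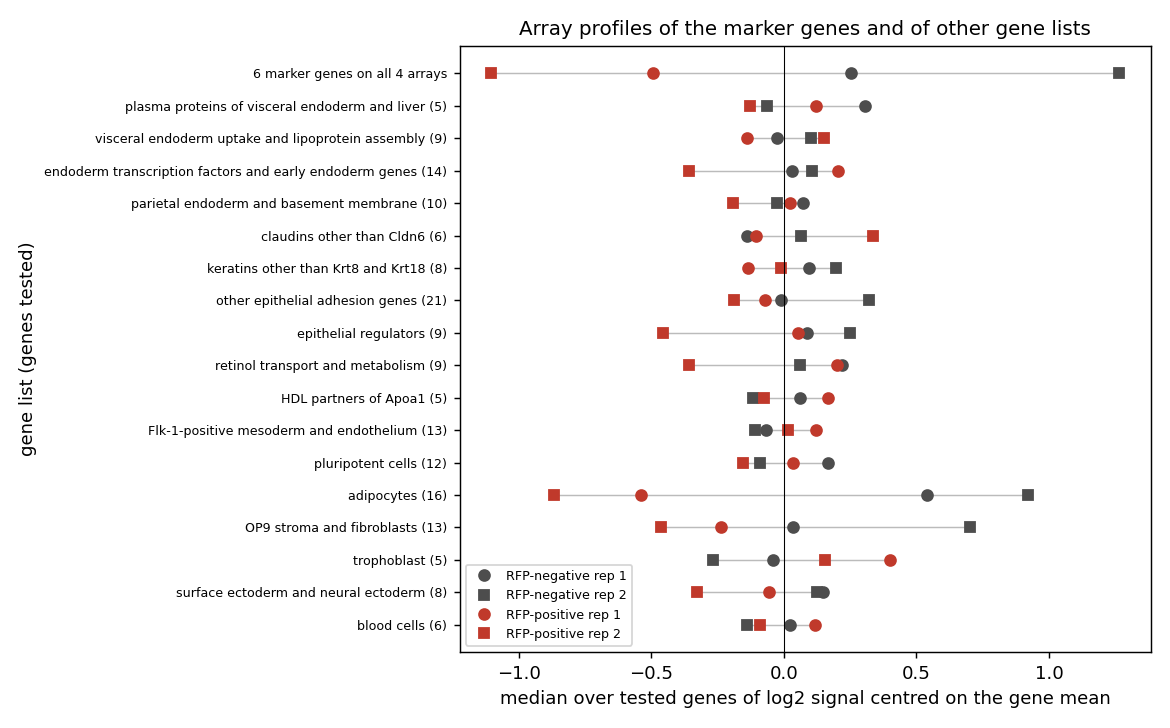
Median over the tested genes of the log2 signal centred on each gene's mean over the 4 arrays (horizontal axis) for the 6 genes measured on all arrays and for each list with at least 5 genes tested (vertical axis, genes tested in brackets); circles are replicate 1, squares replicate 2, grey RFP-negative and red RFP-positive. The 6 genes lie at 0.25, 1.26, −0.50 and −1.11, and the adipocyte list at 0.54, 0.92, −0.54 and −0.87, while the other lists lie between −0.47 and 0.70.

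To see which genes ran most like the members, each gene's 4 values were centred on their mean and compared by Euclidean distance with a mean profile, among 12009 other named genes well above background on all 4 arrays. The profile of Epcam, Cldn6, Krt8 and Krt18 was 0.17, 0.95, −0.30 and −0.82, RFP- first. The 5 nearest genes were Wwc1, S100a4, C1ra, Gstm2 and Cox4i2, at distances of 0.05 to 0.16, each nearer to this mean than any of its 4 members, whose distances were 0.47 to 0.98. The profile of the secreted members measured on all arrays, Rbp4 and Spink1, was 0.46, 1.53, −0.67 and −1.32. The 5 nearest were Spp1, Ephx1, Plin1, Cpt1a and Cdo1, at distances of 0.19 to 0.45. Plin1, the perilipin of fat droplets, is also on the adipocyte list. Epcam lay at 0.49 from the epithelial and at 0.49 from the secreted profile. The epithelial mean includes Epcam itself and the secreted mean does not. These 2 distances are therefore not alike and do not show to which profile Epcam is nearer. These distances rest on 4 arrays and describe likeness across them alone.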

How the data were processed

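Total RNA of 2 RFP-positive and 2 RFP-negative sorted samples was labelled with Cy3 and hybridised to 1-colour Agilent arrays, grouped by the reporter status in the labels. Per the file headers, the deposited intensity values are processed signals from Agilent Feature Extraction 10.10.1.1. All 4 arrays share 1 slide and 1 scan time, which leaves no batch of slide or scan to test. Slide and scan time do not cover batches of culture, sorting or labelling. The authors' value table holds linear intensity as well: it equals the processed signals times a constant per array, between 5.39 and 6.45, for a reason the sources used here do not give. Its column medians were 136.2 and 143.9 for RFP-negative and 133.9 and 142.3 for RFP-positive replicates 1 and 2.

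Control spots (3671) and spots flagged as outliers (115 to 153 per array) were left out. Signals were divided by the array's 75th percentile, put on the log2 scale and averaged over a probe's spots. RefSeq accessions in a GRCm38 table named 27235 of 55681 probes; 28446 had no symbol and 0 had several. The brightest probe stood for a gene. A probe counted as well above background where over 50% of its spots were. A gene was tested if so on both arrays of at least 1 fraction. The test was limma's (version 3.58.1, R 4.3.3; lmFit and eBayes without a block), two-sided, with p-values adjusted by Benjamini-Hochberg over 13431 genes. The steps were tested on simulated arrays. Tables were made in Python 3.11.15 with pandas 2.3.3.

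The 9 genes and the gene lists were chosen with earlier results of these data known. Named genes are the 9, up to 4 of smallest p per list, the 5 nearest each profile, and Kdr and Hoxb6. The other genes named (Sox17, Foxa2, Cdh1, Stra6 and those said to be not detected) were chosen after their values were seen, and some genes and motifs are not reported here one by one. Alternatives were quantile and median scaling, normexp (offset 50, on median signals), the deposited table, 2 other filters, averaging over all probes per gene, an eBayes trend, a replicate block and each array left out.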

Additional observations from a re-analysis of the deposited data

How the results depend on the processing

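The count of genes called by limma was 0 under every alternative run, with 387 (without RFP-negative replicate 2) to 2752 (without RFP-positive replicate 1) genes at an unadjusted p under 0.05 when an array was left out and 732 to 1122 under the others. The count of genes without overlap, 5418, was 8774 to 10923 when an array was left out, which leaves fewer pairs to overlap, and 4888 to 7181 otherwise. Of the 9 genes, 5 were lower without overlap under each scaling tried except normexp, where Ttr made it 6, and 5 to 7 when an array was left out. Their median difference of −1.52 ran from −1.97 to −0.77 over the left-out arrays and was −0.72 with no filter, which adds Afp and Apoa1. Differences of the 7 genes tested kept their sign except that of Ttr. Of the 18 list medians 8 turned when 1 array was left out: those of plasma proteins, uptake genes, endoderm factors, claudins, HDL partners (0.05, to −0.08), Flk-1-positive mesoderm, pluripotent cells and blood cells. That of the HDL partners also turned under normexp, to −0.03. Of the 71 genes the rule picked from the lists, 10 turned when 1 array was left out and 5 under a scaling or with probes averaged. Spink1 differed more than Rbp4 under normexp (−1.70 against −1.64) and without RFP-negative replicate 1 (−2.72 against −2.33). The replicate number as a block gave 0 calls (1038 genes at an unadjusted p under 0.05); same-numbered replicates deviated together with r = 0.09 over genes, and the numbers were not taken as pairs. Dim signals limit Ttr, Afp and Apoa1.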
